A study of Homo sapiens with 3 samples.

Results

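The chaperonin CCT (also called TRiC) is a barrel-shaped machine of the cytosol, built from rings in which each of its paralogous subunits holds a fixed place. It encloses newly made proteins and folds them at the cost of ATP. Actin and tubulin, the building blocks of the cytoskeleton, are its best-known clients, and a dividing neural cell needs both. The 8 genes that encode the subunits, TCP1, CCT2, CCT3, CCT4, CCT5, CCT6A, CCT7 and CCT8, are described here, out of 20033 protein-coding genes on chromosomes 1 to 22, X and Y. They were chosen by function, with earlier results of these data known.

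Occupancy was measured by ChIP-seq, in which DNA bound to a protein is recovered with an antibody and sequenced. The cells were hNSCs, wild-type (WT) neural stem cells made from the established embryonic stem cell line H9 and grown with EGF and FGF. They were fixed with 2 mM disuccinimidyl glutarate and then 1% formaldehyde, and the chromatin was sheared in 14 sonication cycles. CHD8, an ATP-dependent chromatin remodeler, and TRRAP, a scaffold that brings histone acetyltransferases to transcription factors such as MYC and E2F, had 1 library each, and a further library, not analysed here, was made with control IgG. The CHD8 list held 23393 peaks and the TRRAP list 14735. With no replicates, no difference below carries a test, and the spread between experiments is unknown. Peaks do not measure RNA, so the cell type could not be checked by expression. All 5 neural stem cell marker genes (SOX2, SOX1, NES, PAX6 and VIM) had both promoter peaks, but so did 2 of 4 pluripotency genes (LIN28A and DPPA4, not POU5F1 or NANOG) and 2 of 5 neuron genes (SNAP25 and MAP2, not RBFOX3, STMN2 or DCX).

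All 8 CCT genes carried a CHD8 promoter peak, and 6 of them also carried a TRRAP promoter peak. The exceptions were CCT3 and CCT5, which had CHD8 alone. A promoter here reaches 1 kb to either side of the canonical start site. Over all protein-coding genes, 55.9% had a CHD8 and 34.9% a TRRAP promoter peak, and 33.4% had peaks of both that overlapped. CCT promoters are rich in CpG dinucleotides, with an observed over expected ratio between 0.74 (CCT3) and 0.91 (TCP1 and CCT6A), against a median of 0.72 over all coding genes. Among the 9293 coding genes whose ratio was at least that of CCT3, 81.1% had a CHD8 peak and 55.9% a TRRAP peak. Their GC content, between 56.0% at CCT2 and 68.3% at CCT6A, had a median of 59.2%, against 61.3% over all coding genes.

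Each CCT gene held exactly 1 CHD8 peak from 5 kb upstream of the gene record to its end, as did 36.9% of all coding genes. No CHD8 or TRRAP peak lay elsewhere in these windows, so the count of peaks outside the promoter was 0 of 8 genes for both proteins. Among 5178 coding genes with a CHD8 promoter peak and a length in the range of the members (11.2 kb for TCP1 to 58.9 kb for CCT3), 23.0% had a CHD8 peak and 14.1% a TRRAP peak in the window outside the promoter. The length of CCT3 comes from a few annotated transcripts that start up to 29581 bp upstream of its canonical start, and no peak was found at those starts. Beyond the promoters, the nearest CHD8 peak lay between 12.5 kb (CCT6A, at the start of the adjoining gene SUMF2) and 50.9 kb (CCT2) from the start site.

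The sequences next to the start sites are given 5′ to 3′ on the strand of the CCT gene, from GRCh38, for the genes with the strongest peaks (CCT4 and CCT7), the gene whose summits lie far apart (TCP1), a gene without TRRAP (CCT3) and CCT8, which has no coding neighbour at its promoter. Capitals mark matches to the consensus words listed further on, and the last base is the one before the start site.
CCT4, chr2:61888657-61888751, minus strand: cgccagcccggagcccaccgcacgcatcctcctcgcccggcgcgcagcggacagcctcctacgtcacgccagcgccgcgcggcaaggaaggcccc
CCT7, chr2:73234158-73234307, plus strand: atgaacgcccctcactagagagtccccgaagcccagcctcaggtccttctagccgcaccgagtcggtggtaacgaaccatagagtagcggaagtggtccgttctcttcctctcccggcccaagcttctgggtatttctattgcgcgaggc
TCP1, chr6:159789603-159789837, minus strand: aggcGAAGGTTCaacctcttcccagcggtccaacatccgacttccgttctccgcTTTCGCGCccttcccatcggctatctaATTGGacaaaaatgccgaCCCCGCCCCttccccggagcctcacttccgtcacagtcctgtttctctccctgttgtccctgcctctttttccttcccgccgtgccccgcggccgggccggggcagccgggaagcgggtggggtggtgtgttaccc
CCT3, chr1:156338293-156338527, minus strand: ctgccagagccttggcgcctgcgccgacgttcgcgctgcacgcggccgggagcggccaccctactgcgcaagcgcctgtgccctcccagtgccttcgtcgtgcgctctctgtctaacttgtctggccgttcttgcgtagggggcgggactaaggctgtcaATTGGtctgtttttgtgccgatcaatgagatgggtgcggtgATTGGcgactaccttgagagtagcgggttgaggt
CCT8, chr21:29073649-29073813, minus strand: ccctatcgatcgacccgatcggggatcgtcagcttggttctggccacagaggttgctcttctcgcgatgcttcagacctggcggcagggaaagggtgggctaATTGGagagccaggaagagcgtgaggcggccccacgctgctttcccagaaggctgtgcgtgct
The stretches differ in length, from 95 bp at CCT4 to 235 bp at TCP1 and CCT3, so their numbers of matches cannot be compared. Over the same 500 bp on each side of the start, CCT4 and CCT7 had a similar GC content, 60.5% and 59.7%.

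The strongest CHD8 peaks of the complex were at CCT7 and CCT4. The fold, a deposited value of the authors, divides the signal at a peak by the background of the peak caller, and it ranks peaks only within its own list. CCT7, the eta subunit, had a CHD8 peak at chr2:73233230-73234844 with a fold of 29.20 and a −log10 q of 77.01, which ranked 678 in the list. Its fold was at or above that of 94.5% of coding promoters with a CHD8 peak. CCT4, the delta subunit, lies elsewhere on the same chromosome and had its CHD8 peak at chr2:61888078-61888895, with a fold of 27.87, a −log10 q of 73.61 and rank 796 (93.5% of promoters at or below it). TCP1, the alpha subunit, came next with a fold of 17.26 at chr6:159789422-159790723 (rank 2577, 78.7%).

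The remaining 5 genes had CHD8 folds close to one another. CCT8, the theta subunit, had 14.17 (chr21:29073457-29074103), and CCT6A, the zeta subunit, had 13.73 (chr7:56051211-56052161). CCT3 (gamma, chr1:156337896-156338838) and CCT5 (epsilon, chr5:10249630-10250669) had the same fold, 13.29, and the same −log10 q, 25.24. CCT2, the beta subunit, had the lowest, 11.08 (chr12:69585283-69585985, rank 7997). Every fold in the CHD8 list lay on a ladder of equal steps of 0.442, and every TRRAP fold on one of 0.478, within 0.01 of a step. CCT3, CCT5, CCT6A and CCT8 stood 19, 19, 20 and 21 steps above the lowest fold of the CHD8 list, so their order rests on 2 steps and cannot be read without replicates. CCT4 and CCT7 stood 52 and 55 steps above it. What a step stands for is not stated in the lists.

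The median CHD8 fold over the 8 genes was 13.95, against 11.96 over all 11208 coding promoters with a peak. CCT2 alone was below that median, and 7 of 8 were above it, as were 49.4% of all coding promoters with a CHD8 peak. All 8 CHD8 peaks were wider than the promoter median of 638 bp (background 50.0%). They ranged from 647 bp at CCT8 to 1615 bp at CCT7 with a median of 947 bp. The CCT8 peak was only just above that median. The width at CCT7 was at or above that of 97.7% of coding promoters with a CHD8 peak. That peak ran from 1078 bp upstream to 536 bp downstream of the canonical start and covered 10 of the 12 annotated starts of the gene, including those 888 bp upstream.

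**Figure D1:**
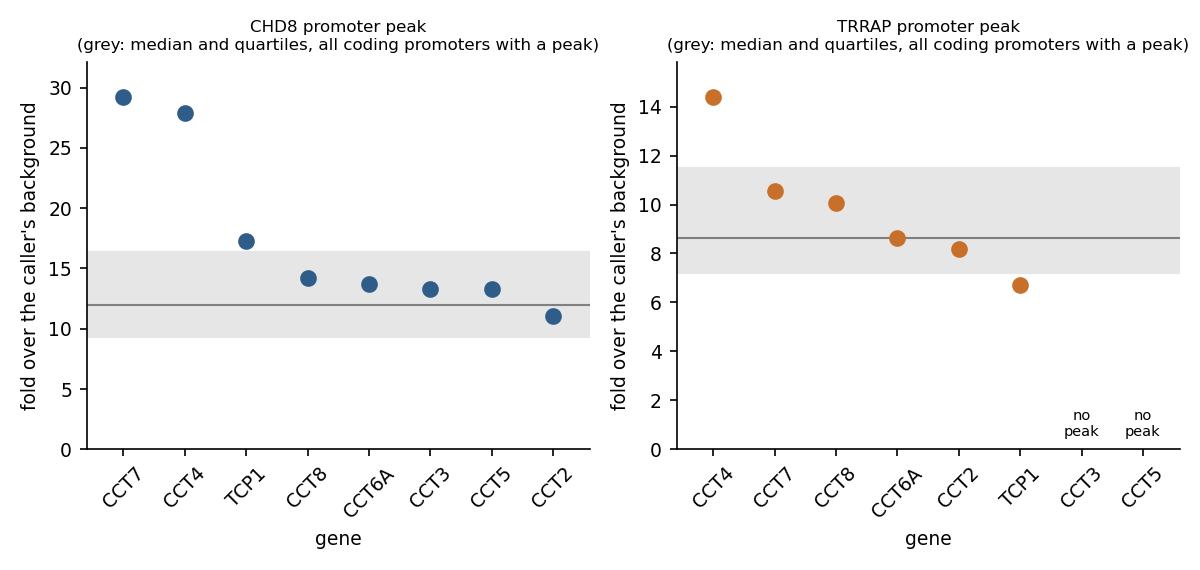
Fold of the promoter peak over the caller's background (vertical axis, linear, separate scale in each panel) for each CCT gene (horizontal axis), CHD8 on the left and TRRAP on the right; each point is 1 library and has no error bar. The grey line and band are the median and the 25th to 75th percentile of all coding promoters with a peak (CHD8 11.96, 9.31 to 16.38; TRRAP 8.65, 7.21 to 11.51): CCT7, CCT4 and TCP1 lie above the CHD8 band, CCT4 lies above the TRRAP band, and CCT3 and CCT5 have no TRRAP peak.

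TRRAP ordered the subunits differently. CCT4 had the highest TRRAP fold, 14.38 (chr2:61888613-61888888, −log10 q 25.79, rank 1869 of 14735), at or above 86.8% of coding promoters with a TRRAP peak. CCT7 followed with 10.56 (chr2:73234182-73234451), then CCT8 with 10.08 (chr21:29073593-29073785), CCT6A with 8.65 (chr7:56051554-56051920) and CCT2 with 8.17 (chr12:69585501-69585884). TCP1, next after CCT7 and CCT4 in CHD8 fold, had the lowest TRRAP fold, 6.73 (chr6:159789712-159789836, −log10 q 6.39, rank 12471), 4 steps above the lowest fold in that list. CCT8 and CCT7 were 1 step apart (11 and 12 above the lowest), as were CCT2 and CCT6A (7 and 8). Of the 6 genes with a peak, 3 lay above the TRRAP promoter median of 8.65 (background 48.6%), and CCT6A lay on it. The median over the 6 was 9.36.

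CCT3 and CCT5 had no TRRAP peak near their start sites. The nearest TRRAP peak to CCT3 was 50.0 kb upstream of its start, and the nearest to CCT5 was 34.0 kb downstream, at chr5:10284142-10284351 (fold 10.08), where a CHD8 peak also lay. CCT2, whose CHD8 fold stood 14 steps above the lowest of the list against 19 for CCT3 and CCT5, had a TRRAP peak. Whether CHD8 fold and TRRAP presence are linked at these genes was not tested. Among all coding genes with a CHD8 promoter peak, 60.7% had TRRAP. This share rose from 30.7% in the lowest decile of CHD8 promoter fold to 77.5% in the highest, which holds CCT4 and CCT7. Of the 344 coding promoters with precisely the CHD8 fold of CCT3 and CCT5, 216 (62.8%) had a TRRAP peak. Absence from a list means that no peak passed the authors' threshold in 1 library of unknown depth, and it sets no upper limit on TRRAP there.

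**Figure D2:**
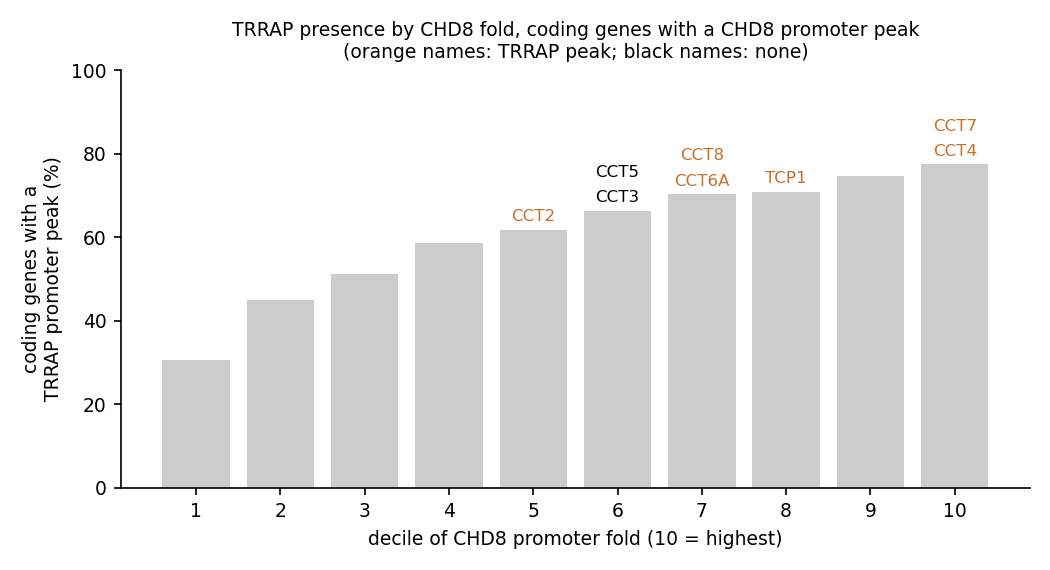
Share of coding genes with a TRRAP promoter peak (vertical axis, %) in each decile of CHD8 promoter fold (horizontal axis, 10 = highest), over the 11208 genes with a CHD8 promoter peak; names show the decile of each CCT gene, in orange with a TRRAP peak and in black without. CCT3 and CCT5 sit in decile 6, where 66.4% of genes had TRRAP. CCT2 was placed in decile 5 and the other 5 genes in deciles 7 to 10. The fold of CCT2 (11.08) is also the highest of decile 4, and that of CCT6A (13.73) the highest of decile 6. The places of CCT2 and CCT6A therefore rest on how ties were broken.

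CHD8 summits, the highest points of the peaks, lay close to the start sites. They were 17 bp downstream at TCP1 and 44 bp downstream at CCT4, both in the 5′ UTR in exon 1, and 38 bp upstream at CCT7 and 52 bp upstream at CCT5. Those of CCT8 (129 bp upstream), CCT3 (141 bp downstream, in intron 1), CCT2 (148 bp downstream, in intron 1) and CCT6A (158 bp upstream) were farther out. In all, 7 of 8 were within 150 bp, as were 60.3% of all coding promoters with CHD8. The median distance was 90.5 bp, against 109 bp. TRRAP summits were 23 bp downstream of the start at CCT7 (5′ UTR, exon 1), 27 bp upstream at CCT8, 29 bp upstream at CCT6A, 76 bp upstream at CCT4, 140.0 bp downstream at CCT2 (intron 1) and 201 bp upstream at TCP1. Their median distance was 52.5 bp, against 133 bp over 7000 coding promoters with TRRAP.

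All 6 TRRAP peaks lay wholly inside the CHD8 peak of the same gene, as did 71.6% of TRRAP peaks over the 6802 coding promoters with both. At CCT2 the summits coincided to within 8 bp, both in intron 1. The distance was 61 bp at CCT7, 102 bp at CCT8, 120.0 bp at CCT4, 129 bp at CCT6A and 218 bp at TCP1, with a median of 111 bp against 105 bp over all such promoters. The TRRAP summit was the nearer of the pair to the start site in 4 of 6 genes (47.6% over all such promoters), and at TCP1 and CCT4 the CHD8 summit was nearer. The TRRAP peaks were between 9.6% (TCP1) and 54.6% (CCT2) as wide as the CHD8 peaks, with widths of 125 bp at TCP1 to 384 bp at CCT2.

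**Figure D3:**
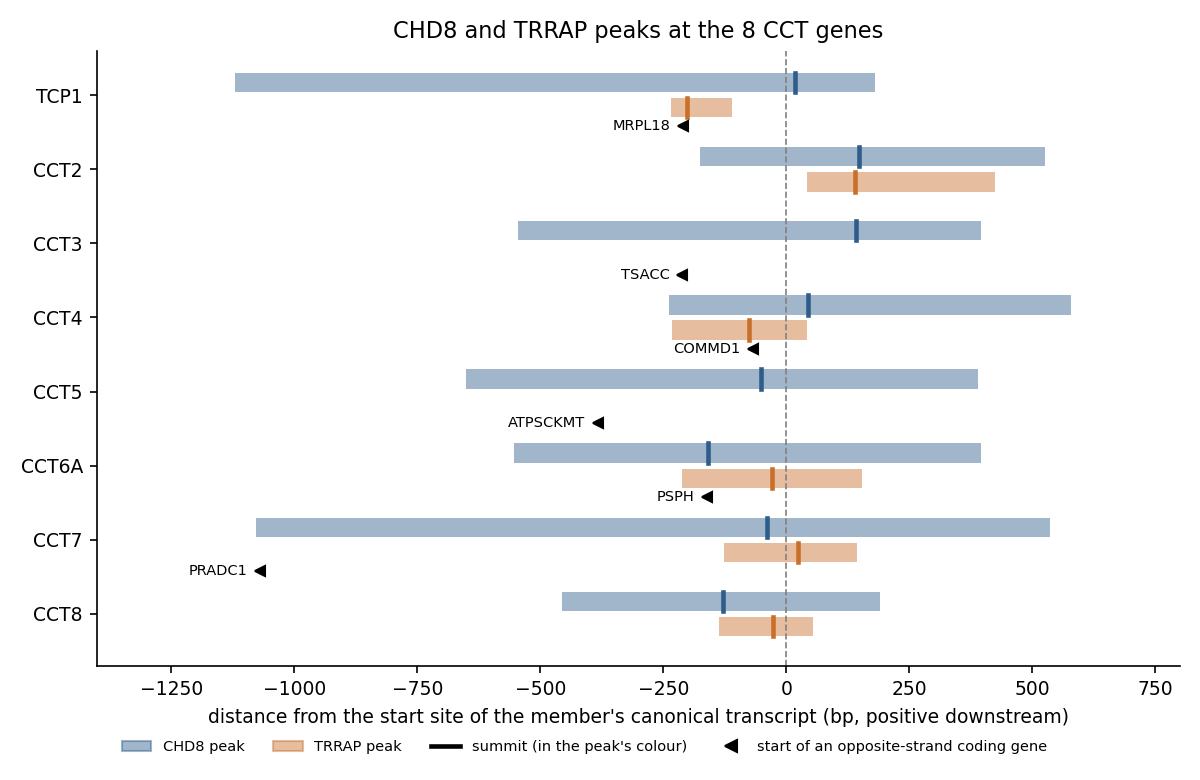
CHD8 peaks (blue) and TRRAP peaks (orange) at the 8 CCT genes, drawn to scale against distance from the canonical start site (horizontal axis, bp, positive downstream); the darker line in each bar is the summit, and black arrowheads mark the nearest start of a coding gene on the opposite strand. Every TRRAP peak lies inside a CHD8 peak, CCT3 and CCT5 have none, and the TRRAP summit of TCP1 lies at an annotated start of MRPL18.

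Many CCT genes share their promoter with another gene. A coding gene on the opposite strand had an annotated start within 1 kb upstream at 5 of 8 members, against 12.6% of all coding genes. The nearest start of any of its transcripts is given: MRPL18 at TCP1 (210.0 bp), TSACC at CCT3 (211 bp), COMMD1 at CCT4 (68 bp), ATPSCKMT at CCT5 (383 bp) and PSPH at CCT6A (161 bp). MRPL18 encodes a protein of the mitochondrial ribosome, and PSPH encodes the phosphatase of the last step of serine synthesis. PRADC1 starts 1069 bp upstream of CCT7, at the far edge of its CHD8 peak. Each of these 6 CHD8 peaks covered an annotated start of the neighbour as well, so by coverage CHD8 there cannot be assigned to either gene. At CCT7 the CHD8 summit was 1 bp from an annotated start of CCT7 and 1031 bp from that of PRADC1.

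Which gene of a pair lay nearer to a summit depended on the starts compared. With the nearest start of any transcript for both genes, 3 summits were nearer to the neighbour. The TRRAP summit of TCP1 was 9 bp from a start of MRPL18 and 100.0 bp from one of TCP1, and its peak covered none of the 15 annotated TCP1 starts. The TRRAP summit of CCT4 was 8 bp from a start of COMMD1 and 61 bp from one of CCT4. The CHD8 summit of CCT6A was 3 bp from a start of PSPH and 78 bp from one of CCT6A. With canonical starts for both, all 3 were nearer to the CCT gene. The distances were then 201 bp to TCP1 and 664 bp to MRPL18, 76 bp to CCT4 and 16942 bp to COMMD1, and 158 bp to CCT6A and 163 bp to PSPH. The canonical COMMD1 start, 17018 bp from that of CCT4, lay inside a separate CHD8 peak, 35 bp from its summit. Among the 5 CCT genes with a divergent neighbour 3 had TRRAP, near the 57.3% over all coding genes with such a neighbour. The 3 without one (CCT2, CCT7 and CCT8) all had it, where the share over all coding genes was 31.7%; 3 genes are too few to read a difference from.

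Consensus words for transcription factors were searched without mismatch on both strands, from 250 bp before to 50 bp after the start site, in all 20033 coding promoters. The start base counted as the first of the 50. No CCT promoter held the E-box CACGTG, bound by MYC and MAX (8.76% of all promoters). None held the NRF1 word GCATGCGC (4.27%), the YY1 word AAGATGGCG (2.84%) or the cyclic AMP response word TGACGTCA (2.69%). TCP1 held an E2F word (TTTGGCGC, TTTCCCGC, TTTCGCGC or TTTGCCGC, 4.36%), TTTCGCGC, whose first base was 181 bp upstream. CCT2 held the ETS word CCGGAAGT (6.14%), on the reverse strand, 16 bp upstream. TCP1 and CCT2 held the SP word GGGGCGGGG (24.5%). The short word CCAAT of NFY occurred in 5 CCT promoters (TCP1, CCT2, CCT3, CCT6A and CCT8) and in 36.1% of all. CCT4, CCT5 and CCT7 had 0 matches to any of these words in that window, and CCT4 held an E2F word farther on, 204 bp downstream. These matches are descriptions of the sequence, and binding by these factors was not measured.

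The word that stood on a summit was that of the heat shock factors, which switch on chaperone genes under stress. It consists of alternating GAA and TTC units 2 bases apart. CCT4 held 4 such units in a row from 38 to 55 bp downstream of its start, in the 5′ UTR in exon 1, a stretch that contains the CHD8 summit at 44 bp. This site, with the heat shock units and the bases between them in capitals, is shown because it lies under the strongest CHD8 peak among the genes with a divergent neighbour.
CCT4 heat shock units, chr2:61888596-61888623, minus strand: ccgctTTCTGGAAGGTTCGTGAAggcag
Any run of 3 units within 100 bp of the summit occurred at 14 of the 9889 distinct CHD8 summits of coding promoters (0.142%), CCT4 among them. In the same summit window, the pair GAANNTTC occurred at 2 members (CCT3 and CCT4) and at 2.41% of these summits. The NFY word occurred at 2 members (CCT6A and CCT8) and at 18.5%, and the remaining words at no member. The CCT4 run was picked out among several words and windows, so its share carries no test. The window used for the other words runs from 250 bp before the start through 50 bases counted from the start base itself. In it, no member held such a run (0.364% of coding promoters), and the pair GAANNTTC occurred in 1 member, TCP1 (5.47%). The pair and the first 3 units of CCT4 end 50 bp downstream of the start base, 1 base past that window. Within 300 bp to either side of the start site, a distance chosen after the CCT4 match was seen, such runs occurred in 2 members (CCT4 and CCT8) and in 0.719% of coding genes. There the pair occurred in 4 members (TCP1, CCT3, CCT4 and CCT8) and in 10.4% of coding genes. In TCP1, CCT3 and CCT4 the pair had the same letters, GAAGGTTC, which was noticed after the matches were seen. At TCP1 it lies 231 bp upstream, past the MRPL18 start at 210.0 bp. At CCT3 it lies 54 bp downstream of the start and 83 bp from the CHD8 summit. The match at CCT8, 240 bp downstream, is 375 bp from its CHD8 summit.

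The genes that act with CCT were compared by lists fixed by function, with counts only. Over all coding genes, the shares were 55.9% for CHD8 and 34.9% for TRRAP. Among coding genes with a CHD8 promoter peak, 60.7% had TRRAP. Prefoldin, the complex that hands unfolded actin and tubulin to CCT, had CHD8 at 6 of 6 genes but TRRAP at 2 of 6, against 6 of 8 for CCT; whether these lists differ was not tested. Its strongest CHD8 peak was at PFDN2 (fold 23.5), and its highest TRRAP fold was 10.6 at PFDN4. The phosducin-like cofactors had CHD8 at 3 of 4 genes, all but PDCL2, and TRRAP at 2 of 4. PDCL led for CHD8 (17.3) and had no TRRAP peak, and TXNDC9 led for TRRAP (19.6). The TRRAP summit of TXNDC9 lay 912 bp upstream of its start, in a peak that did not overlap its CHD8 peak. The prefoldin-like module had CHD8 at 3 of 3 and TRRAP at 1 of 3, with the highest folds at URI1 (13.3 and 8.65).

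Paralogs of the CCT subunits were occupied less evenly. CCT6B, a close relative of CCT6A, had a CHD8 peak with a fold of 15.9, above the 13.73 of CCT6A, and no TRRAP peak. A coding gene on the opposite strand, ZNF830, also starts within 1 kb upstream of CCT6B. CCT8L2 had no peak of either protein. Of the chaperonin-like genes mutated in Bardet-Biedl syndrome, a disorder of cilia, MKKS had both peaks (folds 43.8 and 8.17), and BBS10 (12.4) and BBS12 (9.31) had CHD8 alone. The CHD8 peak of MKKS covered its start, but the summit lay far upstream, close to the 1 kb limit of the promoter. Its TRRAP summit was 75 bp downstream of the start.

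The other chaperone systems had CHD8 at every listed gene. In the Hsp70 and Hsp90 system, of which Hsp70 passes clients to CCT, CHD8 was present at 16 of 16 genes and TRRAP at 13 of 16. The highest folds were at HSPA8 for CHD8 (29.2) and STUB1 for TRRAP (14.9). At STIP1 and CDC37 the strongest CHD8 and TRRAP peaks did not overlap. The mitochondrial chaperonin genes HSPD1 and HSPE1 are divergent and shared 1 CHD8 peak (fold 15.9) and 1 TRRAP peak (14.4). The heat shock factor genes HSF1 and HSF2 both had CHD8 (15.9 and 12.8), and HSF1 also had TRRAP (9.60). The proteasome, another complex whose subunits are needed in fixed proportion, had CHD8 at 31 of 31 genes and TRRAP at 18 of 31. That TRRAP share, 58.1%, was near the 60.7% over all coding genes with a CHD8 promoter peak. Its median CHD8 fold was 17.26 against 13.95 for CCT, its median TRRAP fold 7.45 against 9.36, with the highest values at PSMA4 (51.3) and PSMD12 (22.0).

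The highest TRRAP folds of these lists were at genes of CCT clients. CHD8 was present at 19 of 20, all but TUBA1C, and TRRAP at 17 of 20, with a median TRRAP fold of 11.51. At TUBA1B, TUBB2B and TUBB the strongest CHD8 and TRRAP peaks did not overlap. TUBA1A, a tubulin of developing neurons, had the highest TRRAP fold, 34.4, followed by ACTG1, a cytoplasmic actin, with 28.7. Both had a CHD8 fold of 12.4, below the 13.95 of the CCT genes. CDC20 and HDAC3, which encode a mitotic activator of ubiquitination and a histone deacetylase, had CHD8 alone (7.54 and 7.10). The highest CHD8 fold among clients was 35.4, at GNB2.

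**Figure D4:**
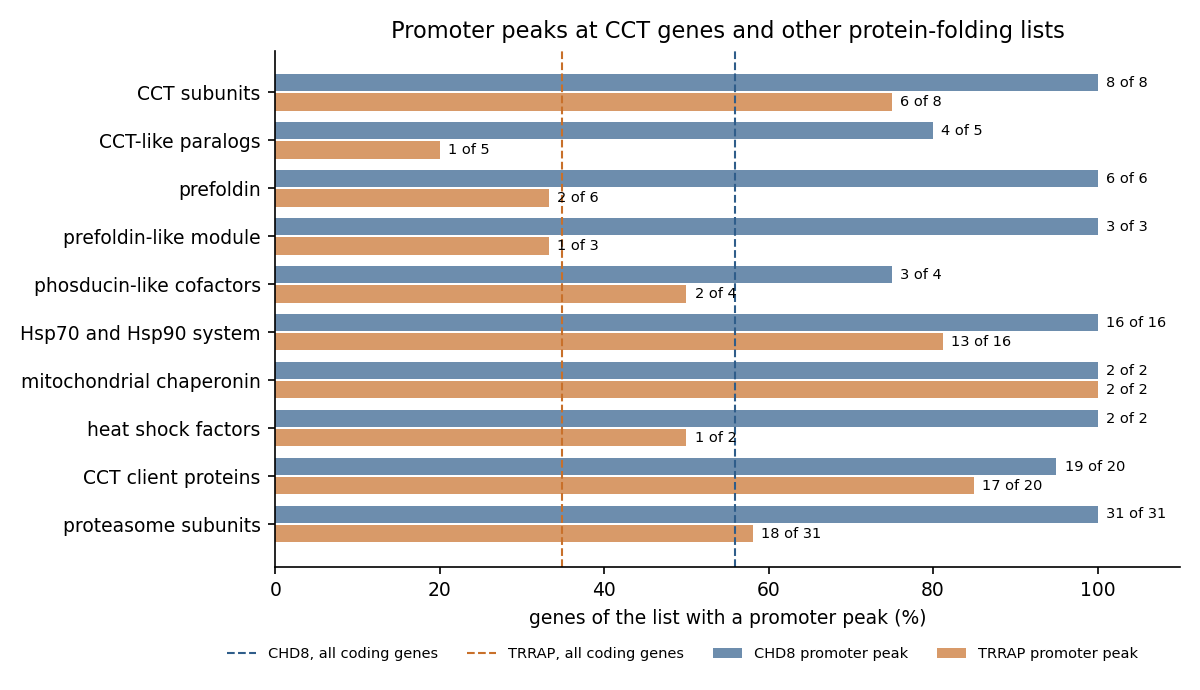
Share of genes with a CHD8 (blue) or TRRAP (orange) promoter peak (horizontal axis, %) in the CCT genes and 9 related lists (vertical axis), with the count at the end of each bar and dashed lines at the shares of all coding genes (55.9% and 34.9%). CHD8 reached all genes in 7 of the 10 lists, including CCT, while TRRAP ran from 1 of 5 CCT-like paralogs to 2 of 2 mitochondrial chaperonin genes.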

How the data were processed

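Reads of the CHD8, TRRAP and IgG libraries were handled by the authors, and only their peak lists were used. The submitters' processing notes name HISAT2, MACS2 2.1.1.20160309 and GRCh38, without roles, parameters or control. By their names, the CHD8 list was cut at a false discovery rate of 0.0001 and the TRRAP list at 0.001. Read depth is unknown. The fold is a deposited linear ratio, the −log10 p and −log10 q values are as deposited, and the deposited score was 10 times −log10 q, rounded down. All peaks on the main chromosomes fit the sequence lengths of GRCh38.

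Genes, canonical starts and exons came from GENCODE 44. A peak overlapped a window or another peak if they shared at least 1 bp. The strongest peak by −log10 q, then fold, stood for a promoter. Deciles broke tied folds by position. CpG ratio and GC content used 500 bp on each side of the start. Of 111 list genes, 111 matched the annotation. The named genes were the members, their coding neighbours, the leading and unoccupied genes of each list and records with pseudogene names that had a peak. For each member and list, words of 32 bases within 50 bp of the summit occurred once in GRCh38. Occupancy counting was tested on simulated peaks. Python 3.11.15, pandas 2.3.3, numpy 2.4.6, pysam 0.24.0, numba 0.67.0 and matplotlib 3.10.9 were used. Members, lists, words and alternatives were chosen with earlier results of these data known.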

Additional observations from a re-analysis of the deposited data

How the results depend on the processing

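Of 46 alternatives over 11 results, 41 left the value unchanged or, for a count, within 1.5 times. CHD8 stayed at 8 of 8 genes with windows of 500 or 2500 bp, starts of all transcripts, peaks of at least the median rank and a q-value of at most 0.0001. Only the 500 bp window and the median rank could have lowered that count. The other window and the added starts widen the search, and all 23393 CHD8 peaks already met that q-value. TRRAP stayed at 6 under the same alternatives except at the median rank, where 4 were left because CCT2 and TCP1 fell below it. With peak centres within 200 bp, overlapping pairs numbered 3 (CCT2, CCT6A and CCT8) in place of 6. The CHD8 peaks of TCP1, CCT4 and CCT7 are centred farther than that from the TRRAP peaks inside them. Measured to the nearest start of any transcript, the median summit distance was 32 bp for CHD8 and 45 bp for TRRAP. By percentile of −log10 q within the list in place of fold, the medians were 81.4 and 64.1. Peaks outside the promoter stayed at 0 under each alternative, but each of these alternatives narrowed the search, so the 0 could not have risen. They are counted among the alternatives left unchanged. With 1 library per antibody, no replicate could be left out and no paired analysis was possible because each antibody had 1 library. The unknown depth limits what the absence of a peak at CCT3 and CCT5 can show.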

Other observations

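Of 16 annotated records with names of CCT pseudogenes, 14 had no CHD8 or TRRAP peak within 1 kb of a start. The exceptions were CCT6P1 and a long non-coding RNA record named CCT6P3. Both names stand for duplicated copies of CCT6A on chromosome 7. The separate pseudogene record of CCT6P3, which starts at chr7:65064999, was among the 14 without a peak. The CCT6P3 long non-coding record had 2 CHD8 peaks, the stronger at chr7:65038181-65039077 with a fold of 18.59 and its summit 41 bp downstream of the start, and no TRRAP peak. CCT6P1 had 2 CHD8 peaks, the stronger at chr7:65750651-65750892 (fold 10.19, summit 347 bp upstream of the nearest start), and a TRRAP peak at chr7:65750948-65751174 (fold 7.21, 83 bp upstream). The nearest coding starts were 31714 bp (CCT6P3) and 122279 bp (CCT6P1) from these CHD8 summits. The promoter of CCT6A and the CCT6P1 region had 49 matches of 32-base words in common, but all words within 50 bp of both CCT6A summits occurred once in the genome, and 98.3% of those in its CHD8 peak did. How reads from repeated stretches were placed is not given in the sources used here.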
